A study of Homo sapiens with 6 samples.

Results

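Open chromatin was examined at 6 loci of the bone morphogenetic protein (BMP) pathway, those of BMP4, BAMBI, ID1, ID2, ID3 and ID4, in WA09, a line of human embryonic stem cells. The members were the regions of the deposited count table whose midpoint lay in a window of hg19 set around each gene: chromosome 14 from 54.39 to 54.45 Mb for BMP4, chromosome 10 from 28.94 to 29 Mb for BAMBI, chromosome 20 from 30.17 to 30.22 Mb for ID1, chromosome 2 from 8.79 to 8.85 Mb for ID2, chromosome 1 from 23.86 to 23.91 Mb for ID3 and chromosome 6 from 19.81 to 19.87 Mb for ID4. The windows held 28 of the 118556 regions, 8 at BMP4, 5 at BAMBI, 4 at ID1, 3 at ID2, 5 at ID3 and 3 at ID4. Below, the regions of a locus are numbered by position, so that ID1 region 3 is the third from the lower coordinate.

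The assay was FAST-ATAC, a form of ATAC-seq for few cells whose transposase, Tn5, cuts open DNA and adds sequencing adapters there. Cells of the one line were sorted by surface antigens into the GCTM-2highCD9highEPCAMhigh population (the high population, enriched for self-renewal in the study) and the GCTM-2midCD9mid population (the mid population, titled low in the sample labels), with 3 biological replicates of each. The labels name no treatment. Each sort yielded a bulk library, in which fewer cells with an open site and a less open site in each cell cannot be told apart. Total counts ran from 15486251 to 29025274 per library. The reference annotation used here is of GRCh38, so no region was placed against a transcription start, and the stem cell identity of the libraries was not checked at marker genes.

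BMP ligands such as BMP4 bind receptor kinases at the cell surface, which phosphorylate SMAD proteins that then enter the nucleus and bind DNA. The ID genes are direct targets of this signal. Their products carry a helix-loop-helix domain without a DNA-binding part, and so hold basic helix-loop-helix factors off DNA. BAMBI is also a BMP target and encodes a receptor-like membrane protein without a kinase, which dampens the signal. In human pluripotent stem cells, BMP4 drives differentiation, and the comparison asks whether chromatin at the ligand, at the antagonist and at the targets differed between the 2 sorted populations.

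The bases before the transcription starts of the ID genes and BAMBI are shown because SMAD proteins bind short motifs. Those of BMP4 were searched in the same way but are not printed. The sequences are from RefSeq on GRCh38.p14, where all 6 genes were matched by symbol, and each holds the 250 bases before the start, 5′ to 3′ in the direction of the gene. Capitals mark GGCGCC (a GC-rich SMAD motif), CAGAC (the SMAD box), CCAAT and TATAAA, each searched on both strands.
ID1: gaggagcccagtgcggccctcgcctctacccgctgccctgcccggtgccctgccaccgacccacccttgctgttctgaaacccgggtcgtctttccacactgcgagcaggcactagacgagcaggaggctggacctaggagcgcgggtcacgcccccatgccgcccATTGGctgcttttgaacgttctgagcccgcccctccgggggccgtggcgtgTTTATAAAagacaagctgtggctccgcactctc
ID2: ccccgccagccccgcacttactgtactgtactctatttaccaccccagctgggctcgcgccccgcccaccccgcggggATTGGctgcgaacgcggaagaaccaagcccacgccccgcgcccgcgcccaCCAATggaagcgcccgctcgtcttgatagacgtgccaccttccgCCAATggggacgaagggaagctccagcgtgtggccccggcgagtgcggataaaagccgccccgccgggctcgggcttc
ID3: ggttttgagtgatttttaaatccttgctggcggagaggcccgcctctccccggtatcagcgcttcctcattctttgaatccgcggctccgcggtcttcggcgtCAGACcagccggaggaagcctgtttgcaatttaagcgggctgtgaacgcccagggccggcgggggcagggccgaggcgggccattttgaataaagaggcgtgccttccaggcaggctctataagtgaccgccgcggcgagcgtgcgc
ID4: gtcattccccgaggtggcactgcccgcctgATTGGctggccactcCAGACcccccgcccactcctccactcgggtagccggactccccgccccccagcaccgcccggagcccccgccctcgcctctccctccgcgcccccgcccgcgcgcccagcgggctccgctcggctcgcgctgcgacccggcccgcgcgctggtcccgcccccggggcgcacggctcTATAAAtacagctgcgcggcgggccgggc
BAMBI: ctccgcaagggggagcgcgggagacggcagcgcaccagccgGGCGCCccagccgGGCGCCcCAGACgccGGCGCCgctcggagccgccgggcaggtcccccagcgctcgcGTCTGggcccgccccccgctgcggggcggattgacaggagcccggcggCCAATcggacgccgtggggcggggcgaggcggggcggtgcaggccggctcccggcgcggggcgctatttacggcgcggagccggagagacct
These windows lie on chromosome 20 from 31605039 to 31605288 (ID1, plus strand), chromosome 2 from 8681806 to 8682055 (ID2, plus), chromosome 1 from 23559502 to 23559751 (ID3, minus), chromosome 6 from 19837120 to 19837369 (ID4, plus) and chromosome 10 from 28677271 to 28677520 (BAMBI, plus).

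The BAMBI window held 3 GGCGCC and 2 CAGAC matches. Over the 35114 windows of the same length in the RefSeq table, 16.4% held GGCGCC, 38.0% held CAGAC and 5.63% held both. The ID genes held no GGCGCC, and CAGAC matched 1 time each at ID3 and ID4 and not at ID1 or ID2. CCAAT, found in 32.0% of windows, matched 3 times at ID2 and 1 time each at ID1, ID4 and BAMBI. TATAAA, found in 10.7%, matched at ID1, where the matches on both strands overlap, and at ID4. BMP4 has 3 annotated starts, of which 1 held GGCGCC and 2 held CAGAC. No match of these letters shared a base with a match of another motif. GC content was 66% at ID1, 69.2% at ID2, 62.0% at ID3, 78.8% at ID4 and 81.2% at BAMBI, against a median of 58.0% over all windows. The 3 BMP4 windows had 63.6%, 56% and 70.4%, of which the second lay below that median. A match is only a match of letters in this window, and bases farther from the start were not searched. Whether these windows lie in a region of the count table was not determined, since the builds differ.

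Across the 28 regions, 3 were more accessible in the mid population and 0 in the high population by edgeR (quasi-likelihood test with replicate number as a block), where a region was called when its p-value, adjusted over all regions by the Benjamini-Hochberg method, was under 0.01. These 3 were 2 regions of ID1 and 1 of ID3. Over all regions the same test called 3.77% higher in the mid population and 2.32% higher in the high population. All 3 called members were at least 2150 bp wide, and of all regions that wide 22.4% were called higher in the mid population. At an adjusted p under 0.05, 7 and 0 members were called, against 7.08% and 6.03% of all regions. At an unadjusted p under 0.05, 8 members were higher in the mid and 1 in the high population, against 13.6% and 14.2% of all regions. DESeq2 called 3 and 0 members at the adjusted threshold of 0.01, against 3170 and 736 of the 118556 regions. Fold changes are given below as log2 of high over mid, so that negative values are higher in the mid population. Their median was -0.10 over the members and 0.03 over all regions.

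Of the members, 19 had a negative and 9 a positive log2 fold change, and over all regions 53.5% were positive. On total counts only, which moved the median of all regions to 0.12, the members split into 15 negative and 13 positive, and without mid replicate 1 into 16 and 12. In 8 members every mid library lay above every high library, and in 1 every high library lay above every mid library. Among all regions these arrangements occurred in 13% and 12.9%. In the fit that gave the calls above, all regions of the ID1, ID2 and ID3 windows had negative values. By contrast, 4 of 8 at BMP4, 4 of 5 at BAMBI and 1 of 3 at ID4 had positive values.

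ID1 had the largest change among the members. ID1 region 3, from 30191247 to 30197178 on chromosome 20 of hg19, held the most reads of its locus. It had 51.1, 43.2 and 53.8 CPM (counts of the region relative to the TMM library size) in high replicates 1, 2 and 3, and 111, 101 and 92.8 CPM in mid replicates 1, 2 and 3. The mid libraries all lay above the high libraries, with no overlap. The means were 49.4 ± 5.48 CPM (SD, n = 3) in the high and 101 ± 9.04 CPM (SD, n = 3) in the mid population, 2.05 times as many reads in the mid population. This is a log2 fold change of -1.04 (SE 0.12, edgeR adjusted p = 1.71e-08), and the same-numbered pairs gave -1.12, -1.22 and -0.79. This region passed the threshold in each of 13 other fits to all 6 libraries and in each fit that left out a pair or a library. Its log2 fold changes there lay between -1.17 and -0.60. With the replicate block, the partner of a left-out library does not inform the difference between populations. The fits without 1 library are therefore not checks separate from those without its pair.

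ID1 region 2, from 30181872 to 30184697, lay 10.9 kb from region 3 between midpoints. It had 15.7, 20.7 and 21.3 CPM in high replicates 1 to 3 and 30.3, 29.3 and 31.6 CPM in mid replicates 1 to 3. The populations again did not overlap. Their log2 fold change was -0.67 (SE 0.14, edgeR adjusted p = 0.000489). The call was lost with no replicate block (adjusted p = 0.0142), with replicate 2 set apart as a batch (adjusted p = 0.0213), with offsets per chromosome (adjusted p = 0.0230) and with offsets from neighbouring regions (log2 fold change -0.22, adjusted p = 0.230), as well as without replicate 2 or either of its libraries (adjusted p = 0.0380 without the pair). Offsets here are per-library corrections that set the typical difference between libraries to zero along a chromosome, among neighbouring regions or, in the loess fits below, along region width or average read level.

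The other regions of the ID1 window followed the same order without passing the threshold. ID1 region 4 had a log2 fold change of -0.53 (95% interval -0.86 to -0.20, adjusted p = 0.0256, edgeR), and ID1 region 1 of -0.41 (95% interval -0.76 to -0.07, adjusted p = 0.0993, edgeR). In both, the mid libraries lay above all high libraries.

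The surroundings of ID1 had values of the same sign. The 46 regions within 500 kb outside its window had a median log2 fold change of -0.41 (quartiles -0.67 and -0.29), with 9 called higher in the mid and 0 in the high population. The median over all 2592 regions of chromosome 20 was -0.25. Chromosome medians ran from -0.51 on Y to 0.24 on chromosome 4, and chromosomes 19 (-0.47), 22 (-0.35) and 17 (-0.26) also lay below chromosome 20. ID1 region 3 lay 0.63 below the flanking median on the log2 scale, and 97.8% of the flanking regions had a higher value. The part of the surroundings in the change at ID1 was not tested beyond the fits with offsets per chromosome and from neighbouring regions, in which region 3 kept its call with a log2 fold change of -0.80 and -0.60.

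ID3 had 1 called region. ID3 region 3, from 23879906 to 23887355 on chromosome 1 of hg19, was the widest member at 7450 bp and the one with the most reads, 12993 over the 6 libraries. It had 77.7, 70.0 and 78.9 CPM in high replicates 1 to 3 and 135, 99.7 and 94.7 CPM in mid replicates 1 to 3. The populations did not overlap, and mid replicate 1 stood above the other mid libraries. The means were 75.6 ± 4.84 CPM (SD, n = 3) and 110 ± 21.9 CPM (SD, n = 3), a log2 fold change of -0.52 (SE 0.12, edgeR adjusted p = 0.00133). The call was lost with no replicate block (adjusted p = 0.0317), with replicate 2 or 3 set apart as a batch (0.0410 and 0.0262), without replicate 2 or either of its libraries (0.133 without the pair) and without mid replicate 1 (adjusted p = 0.0109). With loess offsets on region width the log2 fold change was -0.05 (adjusted p = 0.796), and with loess offsets on average log2 CPM it was -0.18 (adjusted p = 0.265). The other 4 regions of the ID3 window had log2 fold changes between -0.25 and -0.06, and none passed the test.

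ID2 lay just outside the threshold. ID2 region 1, from 8817323 to 8819856 on chromosome 2 of hg19, had 30.6, 25.8 and 25.5 CPM in high replicates 1 to 3 and 41.5, 33.9 and 37.3 CPM in mid replicates 1 to 3. The populations did not overlap, and the pairs differed by -0.44, -0.40 and -0.55 on the log2 scale. The log2 fold change was -0.46 (SE 0.13, 95% interval -0.72 to -0.20, edgeR adjusted p = 0.0105). It passed with RLE size factors (adjusted p = 0.00739), upper quartile scaling (adjusted p = 0.00344), offsets per chromosome (adjusted p = 0.000888), offsets from neighbouring regions (adjusted p = 0.00155), replicate 1 set apart as a batch (adjusted p = 0.00914), and without replicate 1 (adjusted p = 0.00232), high replicate 1 (adjusted p = 0.00179) or mid replicate 1 (adjusted p = 0.00401). It did not pass with the other settings, among them the loess offsets on average log2 CPM (log2 fold change -0.27, adjusted p = 0.112) and on region width (-0.29, adjusted p = 0.0938), and its adjusted p over all alternatives ran up to 0.212, without replicate 2.

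ID2 region 2, from 8824484 to 8826668, resembled it, with a log2 fold change of -0.43 (95% interval -0.70 to -0.17, adjusted p = 0.0191, edgeR) and no overlap between the populations. ID2 region 3 had a value of -0.33 and overlapping libraries (adjusted p = 0.213, edgeR). The 50 regions within 500 kb outside the ID2 window had a median log2 fold change near zero, -0.05, and 0 of them were called in either direction.

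ID4 showed no called region. ID4 region 2, from 19836760 to 19839938 on chromosome 6 of hg19, had 88.4, 75.3 and 76.4 CPM in high replicates 1 to 3 and 87.3, 83.3 and 86.7 CPM in mid replicates 1 to 3, so that high replicate 1 exceeded every mid library. The log2 fold change was -0.10 (SE 0.11, 95% interval -0.33 to 0.12, edgeR adjusted p = 0.588). Its sign turned with loess offsets on average log2 CPM (0.23) and on region width (0.13), and it was -0.25 with offsets from neighbouring regions (adjusted p = 0.0324, against up to 0.954 under the other alternatives). The value farthest from zero was at ID4 region 3, from 19851340 to 19852574, with 11.8, 10.1 and 11.2 CPM in high replicates 1 to 3 and 9.84, 7.96 and 10.5 CPM in mid replicates 1 to 3. The populations overlapped there, with a log2 fold change of 0.23 (95% interval -0.10 to 0.56, adjusted p = 0.376, edgeR). At an unadjusted p under 0.05, 0 regions of ID4 passed, and DESeq2 called 0.

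**Figure D1:**
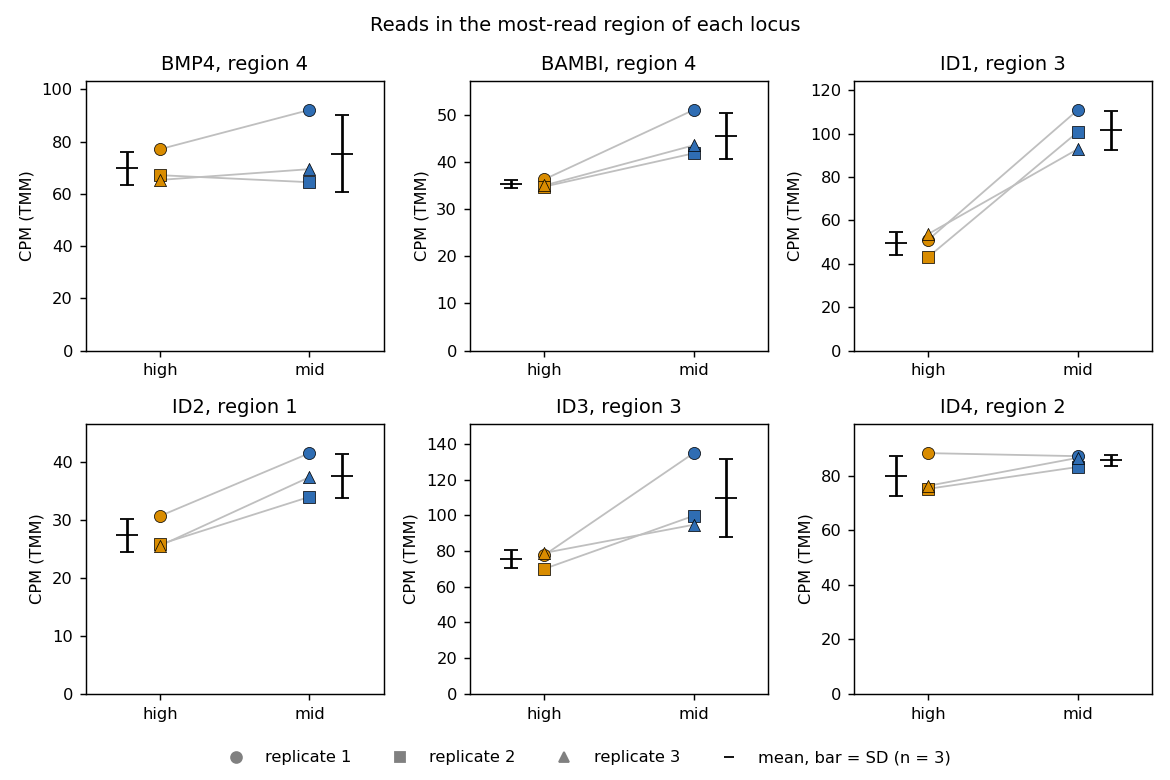
CPM on TMM library sizes in the most-read region of each locus, with 1 panel per locus, the high and mid populations on the x axis, 1 symbol per library, grey lines joining same-numbered replicates, and black bars for the mean and SD (n = 3). The libraries separate at ID1, ID2, ID3 and BAMBI, with ID1 at 49.4 against 101 CPM, and overlap at BMP4 and ID4.

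BAMBI, the antagonist, had no called region at the threshold. BAMBI region 4, from 28965151 to 28968451 on chromosome 10 of hg19, had 36.3, 34.8 and 35.0 CPM in high replicates 1 to 3 and 51, 41.8 and 43.5 CPM in mid replicates 1 to 3. All mid libraries lay above the high libraries. Here the log2 fold change was -0.36 (SE 0.12, 95% interval -0.61 to -0.11, edgeR adjusted p = 0.0459), which passed a threshold of 0.05 but not 0.01. Over the alternatives its adjusted p ran from 0.0104 to 0.552, and the value was -0.11 with loess offsets on region width and -0.13 with loess offsets on average log2 CPM.

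The remaining 4 regions of the BAMBI window had log2 fold changes from 0.06 to 0.37, and in each of them the populations overlapped. The largest was BAMBI region 2, from 28954750 to 28955510, with 3.08, 2.83 and 4.96 CPM in high replicates 1 to 3 and 2.40, 3.03 and 2.91 CPM in mid replicates 1 to 3. High replicate 3 stood above the other 5 libraries, and the log2 fold change of 0.37 had a 95% interval of -0.08 to 0.82 (adjusted p = 0.281, edgeR). Without high replicate 3 the value was 0.14, without mid replicate 3 and without that pair it was 0.13, and without replicate 2 it was 0.58.

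BMP4, the ligand, had 8 regions and none called. BMP4 region 4, from 54418102 to 54424603 on chromosome 14 of hg19, had 77.2, 67.2 and 65.4 CPM in high replicates 1 to 3 and 92.2, 64.5 and 69.5 CPM in mid replicates 1 to 3. The populations overlapped, with mid replicate 1 highest and mid replicate 2 lowest. The log2 fold change was -0.10 (SE 0.12, 95% interval -0.33 to 0.14, edgeR adjusted p = 0.627). It turned to 0.21 with loess offsets on average log2 CPM and to 0.34 (adjusted p = 0.0218) with loess offsets on region width, and was -0.29 (adjusted p = 0.0177) with offsets from neighbouring regions. The adjusted p over the other alternatives ran up to 0.982.

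BMP4 region 5, from 54429557 to 54431433, was the 1 member in which all high libraries lay above the mid libraries. It had 11.0, 11.6 and 9.30 CPM in high replicates 1 to 3 and 6.76, 6.92 and 8.89 CPM in mid replicates 1 to 3. The third pair differed by 0.06 on the log2 scale, against 0.70 and 0.74 for the other pairs. The log2 fold change was 0.49 (SE 0.17, 95% interval 0.14 to 0.84, edgeR adjusted p = 0.0515), and it passed the threshold only without high replicate 3 (log2 fold change 0.72, adjusted p = 0.00725). Its adjusted p over the other alternatives ran from 0.0109 to 0.484. The other 6 regions of BMP4 lay between -0.03 and 0.34. The 35 regions within 500 kb outside the window had a median of 0.17.

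**Figure D2:**
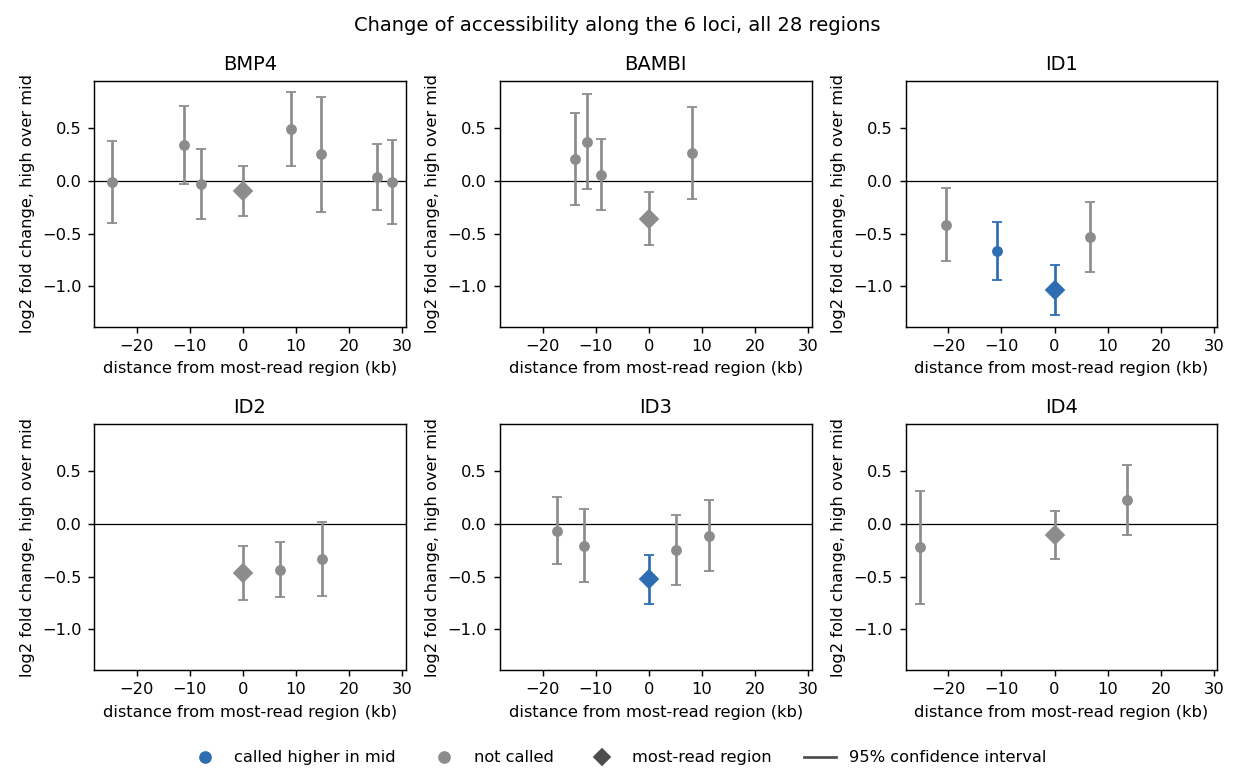
Log2 fold change of high over mid (y axis, with 95% intervals) of all 28 regions against the distance in kb between their midpoint and that of the most-read region of the locus (x axis, diamonds at 0). The 3 called regions, in blue, lie at ID1 and ID3, and every region of ID1, ID2 and ID3 lies below the zero line.

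Levels were compared between loci per kilobase of region. In the high population the most-read regions had 25.2 ± 2.28 CPM per kb (SD, n = 3) at ID4, 10.8 ± 1.14 at ID2, 10.8 ± 0.976 at BMP4, 10.7 ± 0.250 at BAMBI, 10.1 ± 0.649 at ID3 and 8.33 ± 0.923 at ID1. In the mid population the order was ID4 with 27.0 ± 0.671 CPM per kb (SD, n = 3), ID1 with 17.1 ± 1.52, ID2 with 14.8 ± 1.49, ID3 with 14.7 ± 2.93, BAMBI with 13.8 ± 1.48 and BMP4 with 11.6 ± 2.27. ID4 stood apart from the others in both populations. ID1 had the lowest level in the high population, below the range of ID3, its neighbour in that order, while the libraries of the other neighbours below ID4 overlapped. In the mid population the libraries of every neighbouring pair below ID4 overlapped.

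The 6 loci were also compared by their summed reads. The regions of ID1 together had 86.1 ± 8.62 CPM (SD, n = 3) in the high and 156 ± 9.28 CPM (SD, n = 3) in the mid population, a mid-to-high ratio of 1.81. The ratio was 1.35 at ID2, 1.34 at ID3, 1.14 at BAMBI, 1.05 at ID4 and 1.01 at BMP4. At ID1, ID2, ID3 and BAMBI every mid sum lay above every high sum (two-sided exact permutation test, p = 0.1 each, the smallest p that 3 libraries against 3 allow, and 0.15 after Benjamini-Hochberg adjustment over the 6 loci). At BAMBI the log2 ratio of high over mid fell in size from -0.19 to -0.10 without replicate 1 and to -0.094 on total counts only. At ID4 and BMP4 the sums overlapped (p = 0.4 and p = 0.9 in the same exact test). Each sum includes a region at least 2150 bp wide, and 22.4% of all regions that wide were called higher in the mid population. How often the sums of other windows separate in this way was not counted.

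A scaling factor common to a whole library cancels in the share of a locus' reads that fall in its most-read region. This share was lower in the high population at BAMBI, with 62.6% ± 1.39 (SD, n = 3) against 70.6% ± 1.71 (SD, n = 3), and at ID3, with 65.9% ± 0.908 against 71.4% ± 2.13 (SD, n = 3 each). BMP4 (55.6% against 59.5%) and ID4 (86.0% against 88.0%) had the same order, and in these 4 loci the populations did not overlap (two-sided exact permutation test, p = 0.1 each, 0.15 after adjustment over the 6 loci). At ID1 the share was 57.4% ± 5.18 against 64.9% ± 1.99 (SD, n = 3 each), with high replicate 1 at 63.2% above mid replicate 3 at 62.8% (exact permutation p = 0.2). At ID2, where regions 1 and 2 hold similar numbers of reads, the shares were 45.7% and 46.6% (exact permutation p = 0.7). Outside its most-read region, ID1 kept a mid-to-high ratio of 1.49 and ID2 of 1.33, while the ratio was 1.11 at ID3, 0.916 at BMP4, 0.904 at ID4 and 0.897 at BAMBI. These remainders differ in width. ID1 region 2 (2826 bp) and ID2 region 2 (2185 bp) are at least 2150 bp wide, and every region in the remainders of the other loci is narrower. The 6 most-read regions are all at least 2150 bp wide, and over all regions that wide the median log2 fold change was -0.23, against 0.03 over all regions. With loess offsets on width the gap between wide and narrow regions shrank, to -0.11 at BAMBI region 4 against 0.28 at BAMBI region 2, and to 0.13 at ID4 region 2 against 0.20 at ID4 region 3. The part of width in the shares was not tested further, and how often such shares separate at other loci was not counted.

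**Figure D3:**
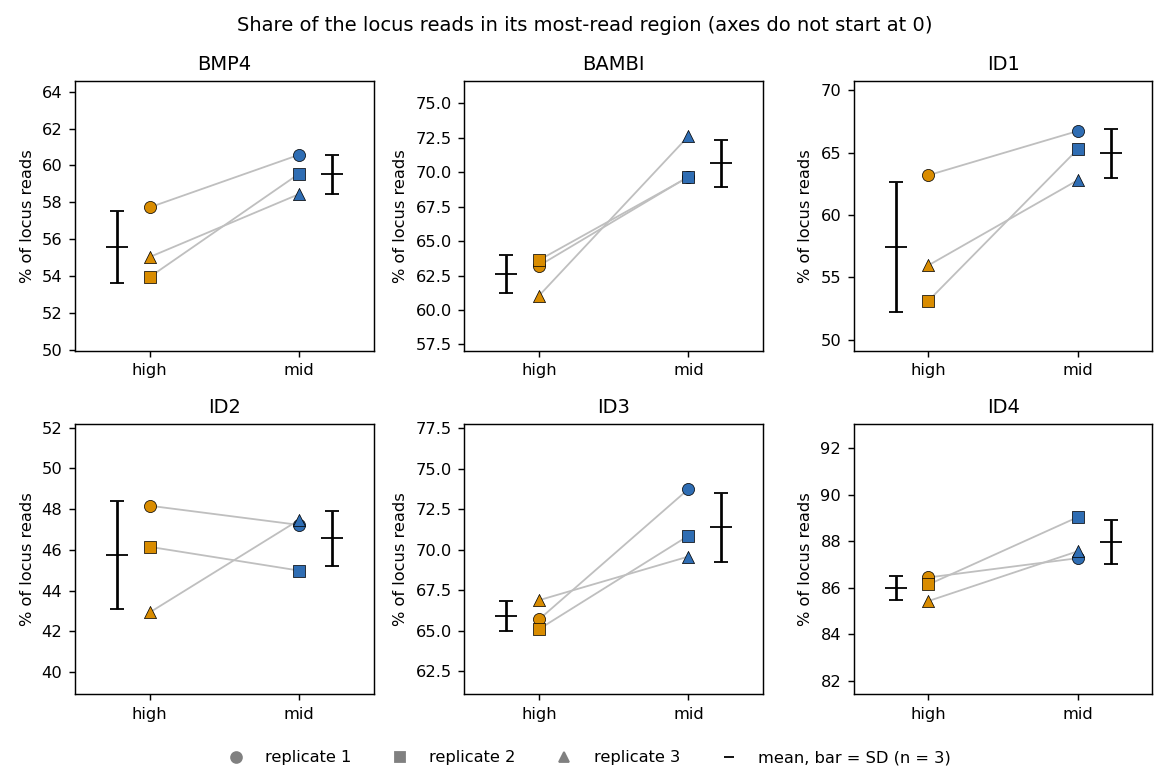
Percentage of the reads of a locus that fell in its most-read region, with 1 panel per locus, 1 symbol per library, grey lines joining same-numbered replicates, and black bars for the mean and SD (n = 3); the y axes do not start at 0. The populations do not overlap at BMP4, BAMBI, ID3 and ID4.

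The called members were among the widest. The members had a median width of 1447.5 bp, against 879 bp over all regions, and 8 of them were at least 2150 bp wide, a width that 10% of all regions reach. All 3 calls fell among these 8, and none of the 20 narrower members was called. Over all regions narrower than that, 1.71% were called higher in the mid population, so that 0 of 20 is near the background. Over all regions that wide, 22.4% were called higher in the mid population, and their median log2 fold change was -0.23 (quartiles -0.45 and 0.02). ID1 region 3 lay lower than all but 0.253% of these wide regions. ID3 region 3 lay at the 18.6th percentile of them, ID2 region 1 at the 24.4th, BAMBI region 4 at the 35.2nd, ID4 region 2 at the 64.2nd and BMP4 region 4 at the 64.9th. These percentiles are not matched for width within the class. The widest of 10 width classes, from 2151 bp, had a median width of 2778 bp. ID3 region 3 was 7450 bp, BMP4 region 4 was 6502 bp and ID1 region 3 was 5932 bp wide. The part of width in these changes was not tested beyond the fit with loess offsets on width. There, ID1 region 3 had a log2 fold change of -0.63 and ID3 region 3 of -0.05.

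**Figure D4:**
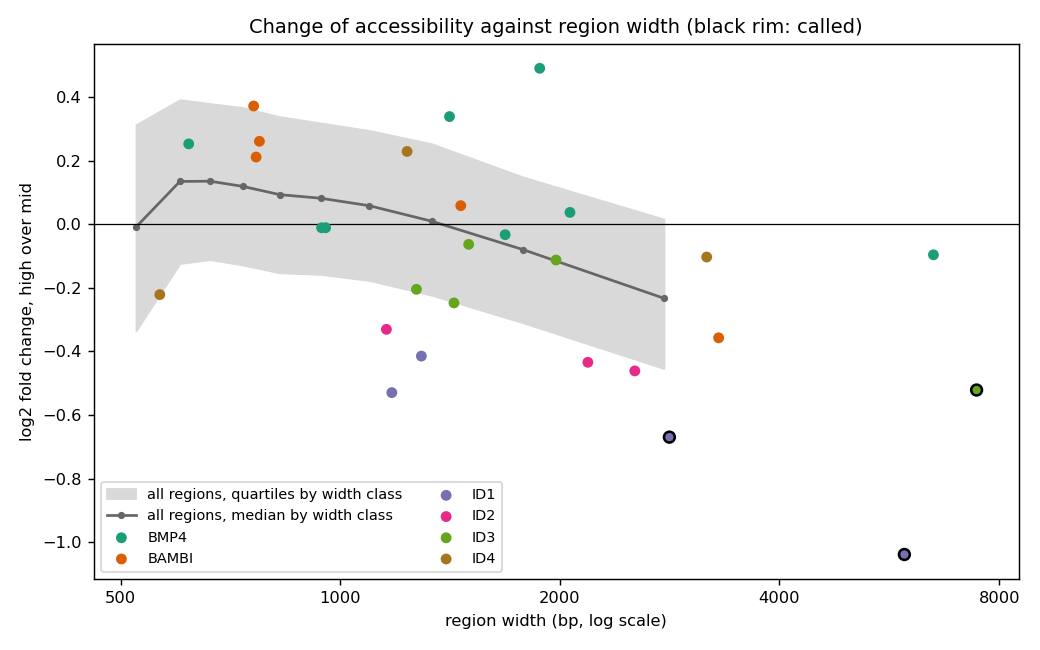
Log2 fold change of high over mid (y axis) against region width in bp (x axis, log scale) for the 28 members, coloured by locus, with called regions rimmed in black. The grey line and band are the median and quartiles of all regions in 10 width classes, drawn at the median width of each class. They fall to a median of -0.23 in the widest class, at 2778 bp, and ID1 region 3, at -1.04, is wider than that.

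Within 500 kb outside the windows, 265 regions were counted, of which 12 (4.53%) were called higher in the mid and 2 in the high population. The calls toward the mid population lay around ID1, with 9, and around ID3, with 3. The median log2 fold change of the flanks was -0.20 at ID3, -0.0026 at BAMBI and 0.13 at ID4. The most-read region lay below the flanking median in all 6 loci, by 0.42 at ID2, 0.35 at BAMBI, 0.33 at ID3, 0.27 at BMP4 and 0.23 at ID4 on the log2 scale. The most-read regions were 2534 to 7450 bp wide and the flanking regions had median widths from 764 to 1078.5 bp. The widest of the 10 width classes had a median of -0.23, against 0.03 for the whole set. Its typical width was 2778 bp, so it is not matched to the widths of the most-read regions. With loess offsets on region width, these regions had values of -0.63 at ID1, -0.29 at ID2 and -0.11 at BAMBI. The values were -0.05 at ID3, 0.13 at ID4 and 0.34 at BMP4. Flanking regions were not compared under these offsets, so the part of width in the gaps was not tested.

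**Figure D5:**
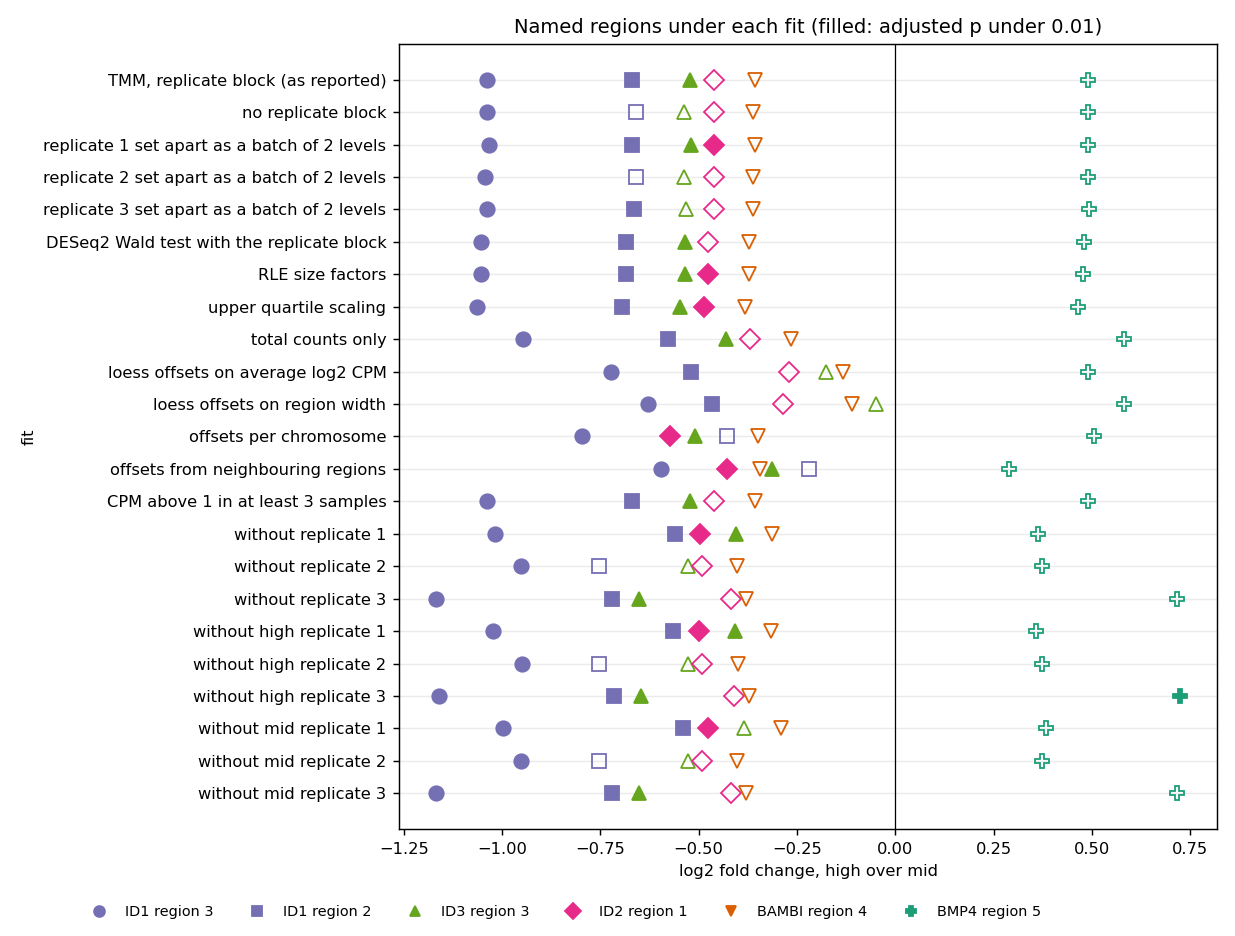
Log2 fold change of high over mid (x axis) of 6 regions under each fit (rows), with filled symbols where the adjusted p was under 0.01. The top row, marked as reported, is the fit that gave the calls in this text. ID1 region 3 is filled in every row, between -1.17 and -0.60, BAMBI region 4 is open in every row, BMP4 region 5 is filled only without high replicate 3, and ID1 region 2, ID2 region 1 and ID3 region 3 are filled in some rows and open in others.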

How the data were processed

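The reads were trimmed (trimmomatic), mapped by the authors with BWA (0.7.15 in the submitters' processing notes) against hg19, freed of duplicates (Picard) and moved to the position cut by Tn5. Regions came from MACS (1.4.2 in those notes) run over pooled replicates, were joined between populations and cleared of the blacklist. The authors then counted reads in each region with bedtools, and these counts were deposited without scaling. A wide region can join several sites, which are not resolved within it, and support for a region in single libraries was not recorded. Starts are printed 1 higher than deposited.

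Counts of all 118556 regions entered 1 model without a filter (edgeR 4.0.16 under R 4.3.3, with TMM scaling, a block of 3 levels for the replicate number and the quasi-likelihood test of high against mid). Calls used a Benjamini-Hochberg adjusted p under 0.01, with all regions in the adjustment. The study included a batch whose coding is not given. Deviations of same-numbered libraries from their group means correlated with r between 0.19 and 0.30 across regions. Libraries with different numbers gave r between -0.26 and 0.06. The deviations within a group sum to zero, so these values are not independent of each other. The replicate numbers come from the sample titles. DESeq2 1.42.0 and limma 3.58.1 (loess, span 0.3) served alternatives, along with other scalings, batch codings, filters and libraries left out. The fit was tested on simulated data with 200 changed regions.

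Per locus, full values are given for the region with the most reads, the one whose log2 fold change was greatest in size, and each called region. Some other regions are named to complete a locus. Members and lists were chosen with earlier results of these data known. Other BMP pathway genes and stem cell markers were not placed, because the annotation is on GRCh38 and the regions are on hg19. The labels call the libraries separate samples and the study calls them biological replicates of 1 line.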

Additional observations from a re-analysis of the deposited data

How the results depend on the processing

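The 3 calls toward the mid population became 1 with no replicate block, 1 with replicate 2 set apart as a batch, 5 with upper quartile scaling and 7 at a threshold of 0.05, and stayed within 1.5 times under the other alternatives fitted to all libraries. Calls over all regions also moved, from 4472 to 1312, 924, 5676 and 8391 in these 4 settings. Without a replicate pair the number of members called ran from 1 to 5, and calls over all regions from 438 to 4793. The number of members had the same range without a single library, with 1 without high or mid replicate 2 and 5 without high replicate 1. These are not separate checks, since with the block the partner of a left-out library does not inform the difference between populations. The calls toward the high population were 0 except without high replicate 3, which gave 1 (BMP4 region 5). The cause of these changes was not tested. The offsets per chromosome and from neighbouring regions were chosen after the data were examined. The sign of BMP4 region 4 turned with loess offsets on average log2 CPM (0.21) and on region width (0.34), and that of ID4 region 2 with the same offsets (0.23 and 0.13). The log2 ratio of summed reads turned to 0.0891 at BMP4 and 0.0227 at ID4 with total counts only. Without a pair it ran from -0.10 to 0.10 at BMP4, from -0.25 to -0.0992 at BAMBI and from -0.98 to -0.77 at ID1. The difference in the share of reads in the most-read region ran from -9.01 to -6.24 percentage points at BAMBI and from -1.80 to 1.05 at ID2 without a pair. Over all regions, calls toward the mid population ran from 432 to 5676 and toward the high population from 176 to 4971 at the 0.01 threshold. The fit with no replicate block gave 1312 and 280, and DESeq2 gave 3170 and 736. The fit used here for the calls above gave 4472 and 2747. Counting members by any overlap with the window gave the same 28 regions. Regions with few reads, down to 286 over the 6 libraries, have wide intervals, so differences there could be missed at this depth.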
